A study of Mus musculus with 6 samples.

Results

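The insulin-like growth factor (IGF) system was examined in hearts of mice infused with angiotensin II (Ang II). It comprised the ligands Igf1 and Igf2, the receptors Igf1r and Igf2r, and the binding proteins Igfbp2, Igfbp3, Igfbp4, Igfbp5, Igfbp6 and Igfbp7, taken from the expression table by gene name. These 10 genes are 10 of the 30914 genes in the table. RNA sequencing was performed on heart tissue of male wild-type C57BL/6J mice aged 8 weeks, with 3 hearts in the Ang II group and 3 in the Ang II + Tec group. All 6 mice carried an osmotic pump with Ang II for 4 weeks (1 μg/kg/min), and the Ang II + Tec mice also received tectochrysin (Tec), a plant flavone, at 5 mg/kg during the last 2 weeks. Untreated or saline-infused hearts were not analysed here, so every comparison is between Ang II hearts with and without Tec, and the response to Ang II itself was not measured.

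IGF1 and IGF2 are secreted peptides that bind the IGF1 receptor, a tyrosine kinase that signals through insulin receptor substrates to PI3K and AKT and promotes growth and survival of cardiac muscle. The IGF2 receptor, which is also the mannose 6-phosphate receptor, carries IGF2 to lysosomes. The binding proteins hold the ligands outside the cell, prolong their half-life and restrict or release them as proteases cleave the binding protein. IGFBP7 is a secreted relative with low affinity for IGFs that is studied as a circulating marker of heart failure.

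Levels are FPKM, fragments scaled to transcript length and to the mapped fragments of the library, so levels of different genes can be set side by side. By mean FPKM, Igfbp7 stood first in both groups, at 369 ± 229 (SD, n = 3) in Ang II hearts and 132 ± 20.3 (SD, n = 3) in Ang II + Tec hearts. Igfbp4 stood second, at 34.1 ± 14.5 and 19.5 ± 7.81 FPKM (SD, n = 3 each). Igfbp3, Igfbp5 and Igfbp6 followed at 18.2 to 20.4 FPKM in Ang II hearts and 12.7 to 17.2 FPKM in Ang II + Tec hearts, and these neighbours did not separate beyond their SDs, which were 2.63 to 10.96 FPKM. Igf2r came next, then Igf2 and Igf1, while the group means of Igf1r and Igfbp2 took the last places. The plot of FPKM by library shows the members over this range.

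**Figure D1:**
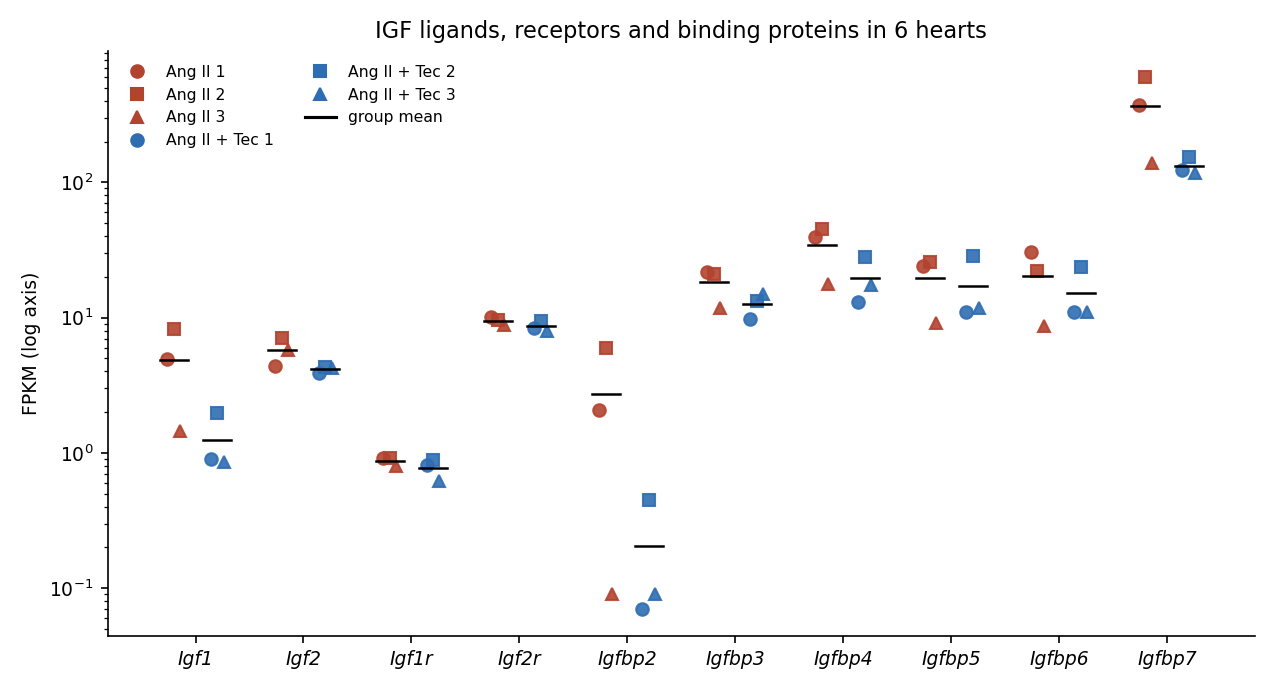
FPKM of the 10 IGF genes in each of the 6 hearts, on a log axis; each point is 1 library, red for Ang II and blue for Ang II + Tec, and the black lines are group means. Igfbp7 lies above 100 FPKM in all 6 libraries, and the receptors vary little between hearts, while Igf1, Igfbp2 and Igfbp7 are set apart in Ang II replicates 1 and 2.

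The hearts differed in atrial transcripts, and whether this came from the tissue taken or from expression within it was not tested. The atrial myosin light chain Myl7 was 419, 332 and 0 FPKM in Ang II replicates 1, 2 and 3 and 0, 1040 and 1.58 FPKM in Ang II + Tec replicates 1, 2 and 3. The ventricular light chain Myl2, a defining marker of ventricular muscle, was 1227 to 1985 and 1527 to 2115 FPKM in the Ang II and Ang II + Tec hearts. Myl7 was at 0 in Ang II replicate 3 and Ang II + Tec replicate 1, and Ang II replicates 1 and 2 and Ang II + Tec replicate 2 were the libraries rich in atrial transcripts. Mitochondrially encoded transcripts took 40.1% to 48.9% of the FPKM in Ang II hearts and 49.6% to 52.5% in Ang II + Tec hearts. FPKM is a share of a library, and most genes were lower in Ang II + Tec hearts. Of all genes, 80% of the 13089 tested had a lower mean, and the median log2 fold change over all of them was -0.17. After median-of-ratios scaling, which sets the median gene near no change, 49.6% were lower. A lower FPKM in whole hearts can come from fewer cells of a type or from less RNA per cell, which cannot be told apart in bulk tissue.

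The sequences just upstream of the members that varied most and of the steady receptors are shown because the members fell into sets that differed between hearts in the same way, and a reader can compare their start regions directly. They are RefSeq sequences of GRCm38.p6, read 5′ to 3′ on the gene's strand, and each ends at the base before the annotated start, except Igfbp5, where 19 bases that lie in an annotated exon were left off. Capitals mark matches on either strand to TATAAA, to the GC box GGGCGG, to TGANTCA (an AP-1 site) and to CCAAT. All 10 members had at least 1 entry, 14 start regions in all, and for Igfbp2 the first of 2 is shown. The region of Igf1 is not shown because it lies within an annotated exon, and the 4 of Igf2 and that of Igfbp3, which holds none of the 4 motifs, are not shown either.

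Igfbp7 (chr5:77408046-77408295, minus strand): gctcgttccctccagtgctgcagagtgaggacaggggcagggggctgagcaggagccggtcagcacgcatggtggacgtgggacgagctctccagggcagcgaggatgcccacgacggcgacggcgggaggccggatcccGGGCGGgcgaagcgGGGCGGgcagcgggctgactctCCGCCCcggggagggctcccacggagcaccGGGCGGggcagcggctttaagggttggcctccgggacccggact
Igfbp2 (chr1:72824230-72824479, plus strand): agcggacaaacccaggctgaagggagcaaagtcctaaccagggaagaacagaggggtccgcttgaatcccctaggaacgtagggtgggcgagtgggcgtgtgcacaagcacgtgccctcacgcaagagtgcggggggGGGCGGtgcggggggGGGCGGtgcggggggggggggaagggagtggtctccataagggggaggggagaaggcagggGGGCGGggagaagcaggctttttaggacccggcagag
Igfbp4 (chr11:99040994-99041243, plus strand): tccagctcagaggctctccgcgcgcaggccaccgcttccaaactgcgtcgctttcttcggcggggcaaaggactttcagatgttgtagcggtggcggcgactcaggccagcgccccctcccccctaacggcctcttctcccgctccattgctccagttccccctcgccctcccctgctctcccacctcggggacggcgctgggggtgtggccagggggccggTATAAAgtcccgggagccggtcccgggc
Igfbp5 (chr1:72874885-72875115, minus strand): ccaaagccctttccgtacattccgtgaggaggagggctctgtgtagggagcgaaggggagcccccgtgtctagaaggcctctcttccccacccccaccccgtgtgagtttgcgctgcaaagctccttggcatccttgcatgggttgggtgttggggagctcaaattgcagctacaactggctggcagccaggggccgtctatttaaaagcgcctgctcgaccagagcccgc
Igfbp6 (chr15:102143936-102144185, plus strand): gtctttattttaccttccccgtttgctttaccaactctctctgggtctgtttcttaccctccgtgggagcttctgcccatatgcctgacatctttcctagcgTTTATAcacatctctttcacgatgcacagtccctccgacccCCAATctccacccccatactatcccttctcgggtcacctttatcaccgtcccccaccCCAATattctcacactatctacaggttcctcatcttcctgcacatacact
Igf1r (chr7:67952007-67952256, plus strand): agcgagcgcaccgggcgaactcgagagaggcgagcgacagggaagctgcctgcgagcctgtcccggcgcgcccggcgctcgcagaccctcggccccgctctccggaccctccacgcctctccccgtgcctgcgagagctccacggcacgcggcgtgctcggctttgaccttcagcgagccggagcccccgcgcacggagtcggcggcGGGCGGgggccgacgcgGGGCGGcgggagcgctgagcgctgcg
Igf2r (chr17:12769707-12769956, minus strand): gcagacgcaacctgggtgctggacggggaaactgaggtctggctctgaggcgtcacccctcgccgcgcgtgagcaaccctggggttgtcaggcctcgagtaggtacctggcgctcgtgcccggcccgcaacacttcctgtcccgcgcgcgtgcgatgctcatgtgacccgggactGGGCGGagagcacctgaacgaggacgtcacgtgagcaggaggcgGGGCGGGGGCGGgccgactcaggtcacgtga

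In the 250 bases upstream of Igfbp7, the member with the highest level, GGGCGG was found 4 times, and upstream of Igfbp2 3 times. The steady receptors had it too, Igf1r 2 times and Igf2r 3 times, so the motif did not separate variable from steady members. It occurs in 32.7% of the 32851 mouse start regions of the same length. Igfbp4 held TATAAA, 28 bases before its start, a motif found in 12.4% of start regions, and Igfbp6 held it at 148 bases before the start together with 2 CCAAT matches, against 33.8% of regions with CCAAT. None of the 4 motifs was found in the bases shown for Igfbp5. TGANTCA occurs in 6.75% of regions. It was found in none of those printed, but once upstream of Igf1, 37 bases before the start, and once in the second region of Igfbp2, 39 bases before it. These matches describe letters in the window and were not measured as bound sites.

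Igf1 is a growth factor that in the heart is made largely by cells other than muscle. Its gene (ENSMUSG00000020053) spans chr10:87858265-87937042 on the plus strand in GRCm38, and the longest annotated model has 4 exons. Igf1 was 4.91, 8.25 and 1.44 FPKM in Ang II hearts and 0.90, 1.97 and 0.85 FPKM in Ang II + Tec hearts. Ang II replicates 1 and 2 lay above every other library, while Ang II replicate 3 was lower than Ang II + Tec replicate 2, so the groups overlapped. The group means were 4.87 ± 3.40 and 1.24 ± 0.63 FPKM (SD, n = 3 each), a ratio of 3.92. On log2(FPKM + 1), Igf1 was lower in Ang II + Tec hearts by a log2 fold change of -1.23 (SE 0.46), which did not pass the threshold in limma with Benjamini-Hochberg adjustment over all tested genes (adjusted p = 0.242, unadjusted p = 0.0313).

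Igf2, the fetal growth factor, is encoded at chr7:142650766-142666816 on the minus strand (ENSMUSG00000048583; 4 exons in the longest model) and is expressed from the paternal allele in most tissues. It was 4.39, 7.10 and 5.80 FPKM in Ang II hearts and 3.90, 4.34 and 4.21 FPKM in Ang II + Tec hearts. Here the groups did not overlap, but the lowest Ang II library exceeded the highest Ang II + Tec library by very little, and in Ang II replicate 3 Igf2 was as high as in the other Ang II hearts while Igf1 was not. The log2 fold change was -0.37 (SE 0.16), with an adjusted p of 0.272 in limma. Of the 9 members tested, Igf2 was the only one whose groups did not overlap, where 18.9% of all tested genes had non-overlapping groups with the lower values in Ang II + Tec hearts.

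The antisense transcripts that overlap the ligand genes were near 0: Igf1os did not exceed 0.06 FPKM, Igf2os did not exceed 0.08 FPKM, and the overlapping model Gm49394 was listed at 0 in all 6 libraries. Whether strand was used in the quantification is not given in the sources used here, so reads of a gene and its antisense partner cannot be told apart.

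The balance of the ligands does not depend on the scaling of a library. The ratio of Igf1 to Igf2 was 1.12, 1.16 and 0.248 in Ang II hearts and 0.231, 0.454 and 0.202 in Ang II + Tec hearts. Igf1 slightly exceeded Igf2 in Ang II replicates 1 and 2 and was below it in the other 4 hearts, Ang II replicate 3 among them. In an exact two-sided permutation test the difference between groups did not pass (p = 0.2, adjusted p = 0.375 over the 10 ratios and shares tested). With 3 hearts against 3, the smallest p this test can give is 0.1.

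The receptors were the steadiest members. Igf1r (chr7:67952827-68233668, plus strand, ENSMUSG00000005533, 21 exons in the longest model) encodes the signalling receptor. It was 0.92, 0.91 and 0.80 FPKM in Ang II hearts and 0.81, 0.89 and 0.62 FPKM in Ang II + Tec hearts. The groups overlapped, and the log2 fold change of -0.08 (95% interval -0.33 to 0.16, limma, adjusted p = 0.634) did not pass. Igf2r (chr17:12682406-12769664, minus strand, ENSMUSG00000023830, 48 exons) was 10.2, 9.60 and 8.75 FPKM in Ang II hearts and 8.42, 9.50 and 7.96 FPKM in Ang II + Tec hearts. Its log2 fold change was -0.13 (95% interval -0.40 to 0.15, limma, adjusted p = 0.525). Under median-of-ratios scaling the sign of both turned, to 0.02 for Igf1r and 0.09 for Igf2r. Airn, the noncoding RNA that is antisense to Igf2r at this imprinted locus, was 0.89 to 1.08 FPKM in Ang II hearts and 1.07 to 1.18 FPKM in Ang II + Tec hearts (log2 fold change 0.09, adjusted p = 0.603).

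The ratio of Igf2r to Igf1r was 11.1, 10.5 and 10.9 in Ang II hearts and 10.4, 10.7 and 12.8 in Ang II + Tec hearts (exact permutation p = 0.9). Per length, the Igf2r level was thus over 10 times that of Igf1r in every heart. The ratio of Igf1r to the insulin receptor Insr was 0.186, 0.209 and 0.143 in Ang II hearts and 0.132, 0.124 and 0.125 in Ang II + Tec hearts. The groups did not overlap for this ratio, and the exact permutation p of 0.1 is the smallest the design allows (adjusted p = 0.25). The insulin receptor itself was 4.95, 4.36 and 5.58 FPKM in Ang II hearts and 6.12, 7.19 and 4.96 FPKM in Ang II + Tec hearts, and its groups overlapped (log2 fold change 0.24, SE 0.15, limma, adjusted p = 0.384).

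Igfbp7 (chr5:77349240-77408041, minus strand, ENSMUSG00000036256, 6 exons in the longest model) was 372, 597 and 138 FPKM in Ang II hearts. In Ang II + Tec hearts it was 123, 155 and 117 FPKM. As with Igf1, Ang II replicates 1 and 2 were high, and Ang II replicate 3 lay within the Ang II + Tec range, so that Ang II replicate 2 exceeded Ang II replicate 3 by 4.31 times within one group. Its log2 fold change was -1.26 (SE 0.48), with an adjusted p of 0.243 and an unadjusted p of 0.0327 in limma. The 3′ end of Igfbp7 overlaps that of Polr2b, an RNA polymerase II subunit gene on the other strand, by 85 bases. Polr2b was 5.91 to 8.52 FPKM over the 6 libraries, far under Igfbp7.

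Igfbp2, a binding protein of the fetal period that is low in adult heart muscle, is encoded at chr1:72824503-72852474 on the plus strand (ENSMUSG00000039323; 4 exons). It was 2.09, 5.99 and 0.09 FPKM in Ang II hearts and 0.07, 0.45 and 0.09 FPKM in Ang II + Tec hearts. Only Ang II replicates 1 and 2 reached 0.5 FPKM, so Igfbp2 was not among the tested genes, which needed that level in 3 libraries. Fitted with no filter on low values, its log2 fold change was -1.27 (SE 0.64, limma, adjusted p = 0.472), with the same overlap through Ang II replicate 3. Its level varied most of the 10 members, over 2.71 units of log2(FPKM + 1) between the lowest and highest heart.

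Igfbp4 (chr11:99041244-99054392, plus strand, ENSMUSG00000017493, 4 exons) encodes a binding protein that restrains IGF action until the protease PAPP-A cleaves it. It was 39.4, 45.2 and 17.7 FPKM in Ang II hearts and 12.99, 28.2 and 17.4 FPKM in Ang II + Tec hearts. The 3 highest values were those of Ang II replicates 1 and 2 and Ang II + Tec replicate 2, and the groups overlapped. Its log2 fold change was -0.74 (SE 0.39, limma, adjusted p = 0.325).

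Igfbp5 (chr1:72857932-72874884, minus strand, ENSMUSG00000026185, 4 exons), a binding protein that attaches to extracellular matrix, points towards Igfbp2 on the same chromosome, with 5457 bases between their ends. It was 24.2, 25.6 and 9.06 FPKM in Ang II hearts and 11.1, 28.7 and 11.7 FPKM in Ang II + Tec hearts. The highest value was in Ang II + Tec replicate 2 and the lowest in Ang II replicate 3, unlike its neighbour Igfbp2, which was at 0.45 FPKM in Ang II + Tec replicate 2. The log2 fold change of -0.19 had a 95% interval of -1.29 to 0.91 (limma, adjusted p = 0.825). Its sign was not stable, turning to 0.04 under median-of-ratios scaling and to between 0.0042 and 0.060 when Ang II replicate 1, Ang II replicate 2, Ang II + Tec replicate 1 or Ang II + Tec replicate 3 was left out.

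Igfbp6 (chr15:102144362-102149511, plus strand, ENSMUSG00000023046, 4 exons) encodes the binding protein with a marked preference for IGF2. It was 30.3, 22.2 and 8.63 FPKM in Ang II hearts and 11.01, 23.8 and 10.9 FPKM in Ang II + Tec hearts. The same 3 hearts as for Igfbp4 and Igfbp5 were high, and Ang II replicate 3 was the lowest of all 6. The log2 fold change was -0.33 (SE 0.47, limma, adjusted p = 0.681), and without Ang II replicate 1 its sign turned, to 0.03.

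Igfbp3 (chr11:7206086-7213923, minus strand, ENSMUSG00000020427, 5 exons) encodes the main carrier of IGFs in blood, where it forms a complex with the acid-labile subunit. It was 21.7, 21.1 and 11.8 FPKM in Ang II hearts and 9.84, 13.2 and 15.0 FPKM in Ang II + Tec hearts. Ang II + Tec replicate 2 was not set apart here, in contrast to Igfbp4, Igfbp5 and Igfbp6. In limma the log2 fold change was -0.46 (SE 0.25, adjusted p = 0.337).

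**Figure D2:**
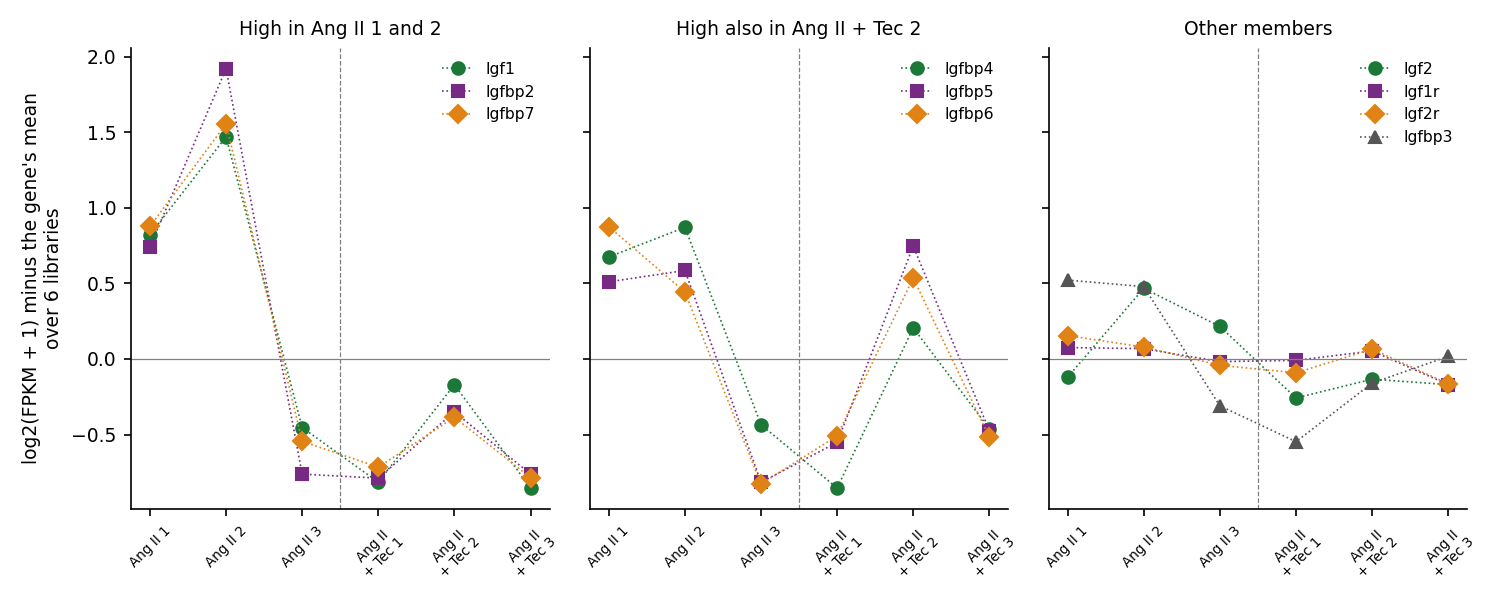
Level of each IGF gene in the 6 hearts as log2(FPKM + 1) minus the gene's own mean; the panels group genes by their measured profile and the dashed line separates the Ang II from the Ang II + Tec libraries. Igf1, Igfbp2 and Igfbp7 are high in Ang II replicates 1 and 2, Igfbp4, Igfbp5 and Igfbp6 are high in Ang II + Tec replicate 2 as well, and the receptors stay near 0.

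Among the 10 members, Ang II replicate 3 lay within the range of the Ang II + Tec hearts for 7, above it for Igf2 and below it for Igfbp5 and Igfbp6. For 8 members the 3 highest hearts were Ang II replicates 1 and 2 and Ang II + Tec replicate 2, the exceptions being Igf2 and Igfbp3. The same 3 hearts were the highest for 42.8% of all tested genes, and they are the libraries with Myl7 above 300 FPKM.

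Of the 10 members, 9 were tested. None was differentially expressed, which took an adjusted p under 0.05 and a log2 fold change of 1 or more in either direction, a rule that 0.16% of all tested genes passed. Igf1 and Igfbp7 had an unadjusted p under 0.05 and were lower, where 16.5% of all genes did the same. All 9 had a lower mean in Ang II + Tec hearts, beside 80% of all genes, and their median log2 fold change was -0.37. Under median-of-ratios scaling 6 of the 9 were lower, and the median was -0.18.

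Ang II replicate 3 decided which members passed. Without it, 3 members were differentially expressed, with log2 fold changes of -1.76 for Igf1 (adjusted p = 0.00634), -1.14 for Igfbp4 (adjusted p = 0.0232) and -1.84 for Igfbp7 (adjusted p = 0.00291) in limma. The same fit called 4.26% of all tested genes. Igfbp3 had an adjusted p of 0.0202 there at a log2 fold change of -0.73, short of the size required. In that limma fit, 3776 of the 13089 tested genes had an adjusted p under 0.05. The Ang II hearts left, replicates 1 and 2, had Myl7 above 300 FPKM. Of the Ang II + Tec hearts only replicate 2 did. The part of atrial transcripts in these calls was not tested. The plot of fold changes shows both fits with the rescaled one.

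**Figure D3:**
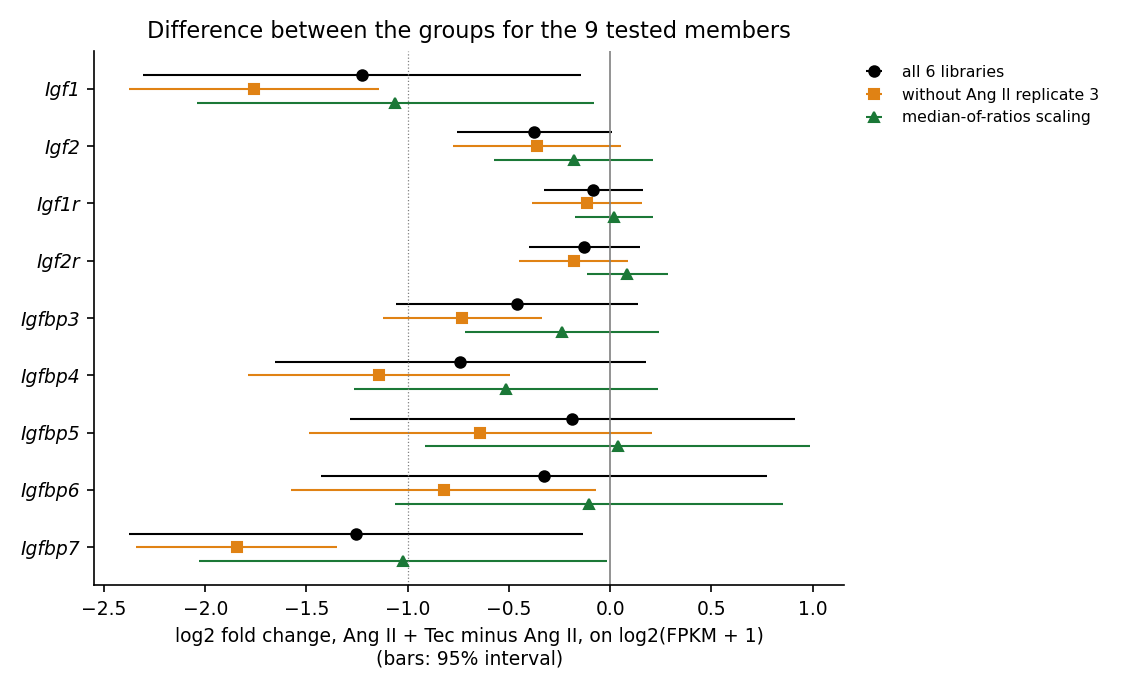
Log2 fold change of Ang II + Tec against Ang II on log2(FPKM + 1) for the 9 tested members, with 95% limma intervals; black circles use all 6 libraries, orange squares leave out Ang II replicate 3 and green triangles use median-of-ratios scaling. The estimates for Igf1 and Igfbp7 lie below -1 in all 3 fits, whereas those of the receptors lie near 0.

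The hearts can also be set side by side by Myl7 level, a choice made after seeing the data. This leaves 1 heart in an arm, so these fold changes are values with no test. Among the hearts with Myl7 above 300 FPKM, Ang II replicates 1 and 2 against Ang II + Tec replicate 2, the log2 fold change was -1.32 for Igf1 and -1.60 for Igfbp7. Among those with Myl7 under 2 FPKM, Ang II replicate 3 against Ang II + Tec replicates 1 and 3, it was -0.38 for Igf1 and -0.21 for Igfbp7. Igfbp5 was higher with Tec in both subsets, by 0.20 and 0.30, and Igfbp6 was lower by -0.12 in the first and higher by 0.31 in the second. Whether the fold changes differ between the subsets was not tested.

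The Igfbp2 to Igfbp7 transcripts summed to 490, 717 and 186 FPKM in Ang II hearts and 168, 249 and 172 FPKM in Ang II + Tec hearts. Igfbp7 made up 76.0%, 83.2% and 74.6% of that sum in Ang II hearts and 73.2%, 62.1% and 68.0% in Ang II + Tec hearts. Its share was lower in every Ang II + Tec heart than in any Ang II heart, also in comparison with Ang II replicate 3, at the smallest exact permutation p of 0.1 that the design allows (adjusted p = 0.25).

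Igfbp5 made up 4.94%, 3.57% and 4.88% in Ang II hearts and 6.60%, 11.5% and 6.82% in Ang II + Tec hearts. Igfbp6 made up 6.19%, 3.10% and 4.65% and then 6.56%, 9.54% and 6.35%. For both shares the Ang II + Tec hearts were all above the Ang II hearts, again with an exact permutation p of 0.1 (adjusted p = 0.25 for each). Shares of one sum move against each other, so a smaller part of Igfbp7 alone enlarges the parts of the others. The shares of Igfbp2, Igfbp3 and Igfbp4 overlapped between groups (exact permutation p = 0.3 for each).

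**Figure D4:**
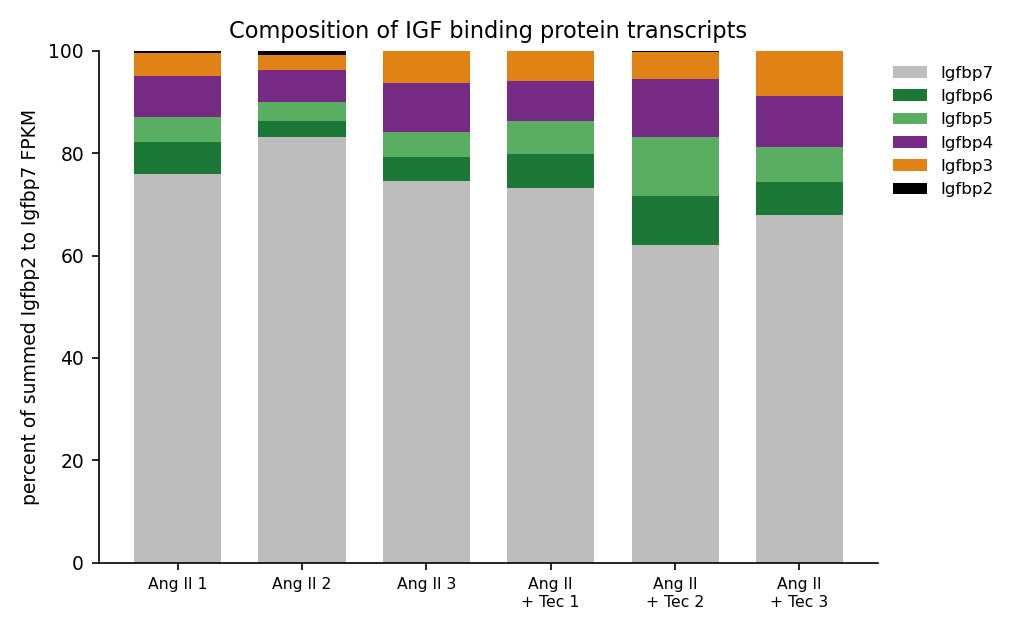
Share of each binding protein gene in the summed FPKM of Igfbp2 to Igfbp7, in percent, stacked per heart from 0 to 100. The Igfbp7 part is 74.6% to 83.2% in Ang II hearts and 62.1% to 73.2% in Ang II + Tec hearts.

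The ligands summed to 9.30, 15.4 and 7.24 FPKM in Ang II hearts and 4.80, 6.31 and 5.06 FPKM in Ang II + Tec hearts, and these sums did not overlap. The ratio of ligand to binding protein transcripts was 0.0190, 0.0214 and 0.0390 in Ang II hearts and 0.0286, 0.0253 and 0.0294 in Ang II + Tec hearts. It overlapped between groups, with the highest ratio in Ang II replicate 3 (exact permutation p = 0.7), and without Ang II replicate 1 the direction of the difference turned.

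The IGF genes with the widest range were set beside the tested genes whose profile over the 6 hearts was most like theirs, by the root mean square difference of mean-centred log2(FPKM + 1). For Igf1 these were S100a6 (0.106), Bok (0.119) and S100a11 (0.120), and for Igfbp7 they were Tuba1a (0.0949), Ppic (0.109) and Emilin1 (0.118). For Igfbp4 they were Stbd1 (0.0937), Fgl2 (0.103) and Ndn (0.104). Tuba1a, a tubulin gene, was 129, 208 and 42.9 FPKM in Ang II hearts and 36.1, 46.5 and 34.3 FPKM in Ang II + Tec hearts, the same order of the 6 hearts as Igfbp7.

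Markers of fibroblasts, macrophages and other cell types were set beside the members. In the fibroblast list, 3 of 8 genes (Lum, Col1a2 and Postn) had an unadjusted p under 0.05 and were lower with Tec, where 16.5% of all tested genes were. Under median-of-ratios scaling 3 of 8 were lower and 1 was higher at that level, against 8.2% and 7.36% of all genes. The summed level was 418 to 1141 FPKM in Ang II hearts and 467 to 882 FPKM in Ang II + Tec hearts. Gsn, which holds the largest part of the sum in all 6 hearts, went the other way, at 283 ± 53.8 and 429 ± 156 FPKM (SD, n = 3 each). Postn, a marker of activated fibroblasts, was 130, 178 and 10.5 FPKM in Ang II hearts and 6.13, 11.3 and 4.84 FPKM in Ang II + Tec hearts. It was thus high in the same 2 hearts as Igf1, Igfbp2 and Igfbp7, and its log2 fold change was -3.02 (limma, adjusted p = 0.224). Its part in the levels of those genes was not tested.

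Of the macrophage list, 7 of 8 genes had an unadjusted p under 0.05 and were lower, where 16.5% of all tested genes were, and under median-of-ratios scaling 5 of 8 were, where 8.2% of all genes were. The summed level was 261 to 509 FPKM in Ang II hearts and 179 to 194 FPKM in Ang II + Tec hearts, with no overlap. The complement gene C1qa was 67.9, 82.5 and 47.4 FPKM in Ang II hearts and 26.3, 28.1 and 32.3 FPKM in Ang II + Tec hearts. The groups did not overlap for 6 of the 8 genes, with the lower values in Ang II + Tec hearts, where 18.9% of all tested genes did the same. No marker of either list was at 0 in any library, and their part in the IGF results was not tested.

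Other marker lists differed between hearts of one group. The mural list summed to 228 to 434 FPKM in Ang II hearts and 188 to 340 FPKM in Ang II + Tec hearts, with 0 of 7 genes at an unadjusted p under 0.05. The adipose list summed to 1.15 to 36.7 and 0.32 to 101 FPKM with its maximum in Ang II + Tec replicate 2, and the defining gene Plin1 was at 0 in Ang II replicate 3. The mesothelial list summed to 0.61 to 13.02 and 1.53 to 18.9 FPKM, and Upk1b and Krt19 were at 0 in Ang II replicate 3. None of the genes of the adipose or mesothelial list passed an unadjusted p of 0.05, of 3 and 5 tested. Endothelial markers were steadier within each group, at 101 to 110 and 88.0 to 96.4 FPKM in sum, and these sums did not overlap. Of the 7 genes, 2 were lower at an unadjusted p under 0.05, where 16.5% of all tested genes were. Under median-of-ratios scaling 0 of 7 were, against 8.2% of all genes. The cardiomyocyte list summed to 8446 to 10317 and 9300 to 10064 FPKM. Of its 7 genes, 4 had a higher and 3 a lower mean of log2(FPKM + 1) with Tec. The groups of Tnnt2, lower with Tec, did not overlap, while those of Myh6, higher with Tec, did. Only Myh6 had an unadjusted p under 0.05, where 2.09% of all tested genes were higher at that level. The erythroid list summed to 248 to 1018 and 147 to 526 FPKM with 0 of 5 genes at that level. The skeletal list summed to 543 to 697 and 640 to 1325 FPKM with 0 of 3 tested. The atrial list summed to 259 to 10258 and 130 to 5041 FPKM, with 0 of 6 genes at an unadjusted p under 0.05. The part of these cells in the levels of Igfbp4, Igfbp5 and Igfbp6 was not tested.

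The rest of the pathway was read from lists of 61 genes, of which 59 were in the table and 46 were tested. None was differentially expressed in limma. An unadjusted p under 0.05 was found for 13, of which 12 were lower and 1 was higher with Tec, where 16.5% of all tested genes were lower and 2.09% higher at that level. The groups did not overlap for 13 of the 46, 12 of them lower and 1 higher with Tec, beside 21.8% of all genes, 18.9% lower and 2.9% higher. Under median-of-ratios scaling, 6 were lower and 5 higher at an unadjusted p under 0.05, against 8.2% and 7.36% of all genes. Without Ang II replicate 3, H19 and Adamts1 were differentially expressed, with log2 fold changes of -1.28 and -1.01 (limma, adjusted p = 0.0116 and 0.0216), 2 of 46 genes where 4.26% of all tested genes were called in that fit.

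In the signalling list of 29 genes, 6 were lower and 1 was higher at an unadjusted p under 0.05. Of all tested genes, 16.5% were lower and 2.09% higher at that level. Under median-of-ratios scaling 3 of the 29 were lower and 3 higher, against 8.2% and 7.36% of all genes. Akt1, the kinase that relays the IGF1 receptor signal through PI3K, was 60.1, 56.8 and 52.65 FPKM in Ang II hearts and 35.1, 35.4 and 33.7 FPKM in Ang II + Tec hearts. Unlike the ligands and binding proteins, all 3 Ang II hearts were well above all 3 Ang II + Tec hearts. In each group the hearts with Myl7 above 300 FPKM were the highest, and the part of atrial transcripts in these values was not tested. The log2 fold change was -0.68 (SE 0.10), with an unadjusted p of 0.000266 and an adjusted p of 0.0917 in limma. It kept its sign in all 17 alternatives, from -0.73 to -0.44, and with 1 heart left out its adjusted p lay between 0.00423, when Ang II replicate 3 was absent, and 0.547, when Ang II replicate 1 was.

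Its relative Akt2 was 18.9 to 21.3 FPKM in Ang II hearts and 15.9 to 20.0 FPKM in Ang II + Tec hearts, with overlap (log2 fold change -0.15, limma, adjusted p = 0.478). Akt2 is named after its values were seen.

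The receptor substrates differed in opposite directions. Irs1 was 3.61, 3.14 and 2.39 FPKM in Ang II hearts and 1.52, 1.85 and 2.10 FPKM in Ang II + Tec hearts (log2 fold change -0.51, limma, adjusted p = 0.220). Irs2 was 1.37, 1.16 and 1.14 FPKM in Ang II hearts and 2.04, 2.12 and 1.52 FPKM in Ang II + Tec hearts (log2 fold change 0.38, adjusted p = 0.229). Neither gene's groups overlapped, and neither passed after adjustment. The adaptor Grb2 was 30.0, 26.8 and 23.6 FPKM and then 18.8, 21.5 and 20.2 FPKM (log2 fold change -0.39, adjusted p = 0.224).

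Growth hormone induces Igf1 through JAK2 and STAT5, with Socs2 and Cish as feedback targets of STAT5. Socs2 was 7.78, 8.24 and 4.87 FPKM in Ang II hearts and 3.14, 4.29 and 3.46 FPKM in Ang II + Tec hearts, with no overlap (log2 fold change -0.76, SE 0.20, limma, adjusted p = 0.201). Cish was 21.5, 16.7 and 15.7 FPKM and then 13.5, 12.1 and 12.5 FPKM, also with no overlap (log2 fold change -0.46, adjusted p = 0.221). The growth hormone receptor Ghr was 12.9 to 14.1 FPKM in Ang II hearts and 12.1 to 14.3 FPKM in Ang II + Tec hearts (log2 fold change -0.02, 95% interval -0.28 to 0.24, adjusted p = 0.926), and its sign turned without Ang II replicate 3 (0.017) or Ang II + Tec replicate 1 (0.041). In this list 2 of 6 genes were lower at an unadjusted p under 0.05 and none higher, where 16.5% and 2.09% of all genes were. Under median-of-ratios scaling 1 was lower and 1 higher, against 8.2% and 7.36% of all genes.

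H19, the noncoding RNA that is imprinted reciprocally with Igf2 and lies next to it, was 13.7, 25.9 and 10.4 FPKM in Ang II hearts and 7.28, 6.33 and 8.00 FPKM in Ang II + Tec hearts. Like those of Igf2, its groups did not overlap and Ang II replicate 2 was the highest. Its log2 fold change was -1.01 (SE 0.30, limma, adjusted p = 0.218). It was the only one of the 3 tested genes in the imprinted and RNA-binding list with an unadjusted p under 0.05. At that level 16.5% of all tested genes were lower.

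Among proteases that cleave binding proteins and the inhibitors of those proteases, 3 of 6 tested genes were lower at an unadjusted p under 0.05 and none was higher, where 16.5% and 2.09% of all genes were. Under median-of-ratios scaling 1 of the 6 was lower at that level, against 8.2% of all genes. The protease Adam9 was 17.2, 21.8 and 11.02 FPKM in Ang II hearts and 10.2, 11.6 and 9.13 FPKM in Ang II + Tec hearts (log2 fold change -0.60, limma, adjusted p = 0.249). Stc2, a stanniocalcin that inhibits PAPP-A, was 3.97, 4.71 and 3.56 FPKM and then 2.34, 3.45 and 2.89 FPKM (log2 fold change -0.39, adjusted p = 0.249). The values of Stc2 did not overlap, and those of Adam9 did through Ang II replicate 3.

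The other stanniocalcin, Stc1, was 1.19, 0.88 and 0.55 FPKM in Ang II hearts and 0.25, 0.57 and 0.43 FPKM in Ang II + Tec hearts (log2 fold change -0.40, limma, adjusted p = 0.250). The serine protease Htra1 was 32.2, 43.2 and 27.3 FPKM and then 22.2, 28.1 and 25.2 FPKM, which did not pass an unadjusted p of 0.05 (log2 fold change -0.41, limma, adjusted p = 0.280). Pappa, which encodes PAPP-A, was at 0.30 FPKM or less in all 6 hearts and was not tested. The plot of the pathway lists gives these fold changes beside the median of all genes.

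**Figure D5:**
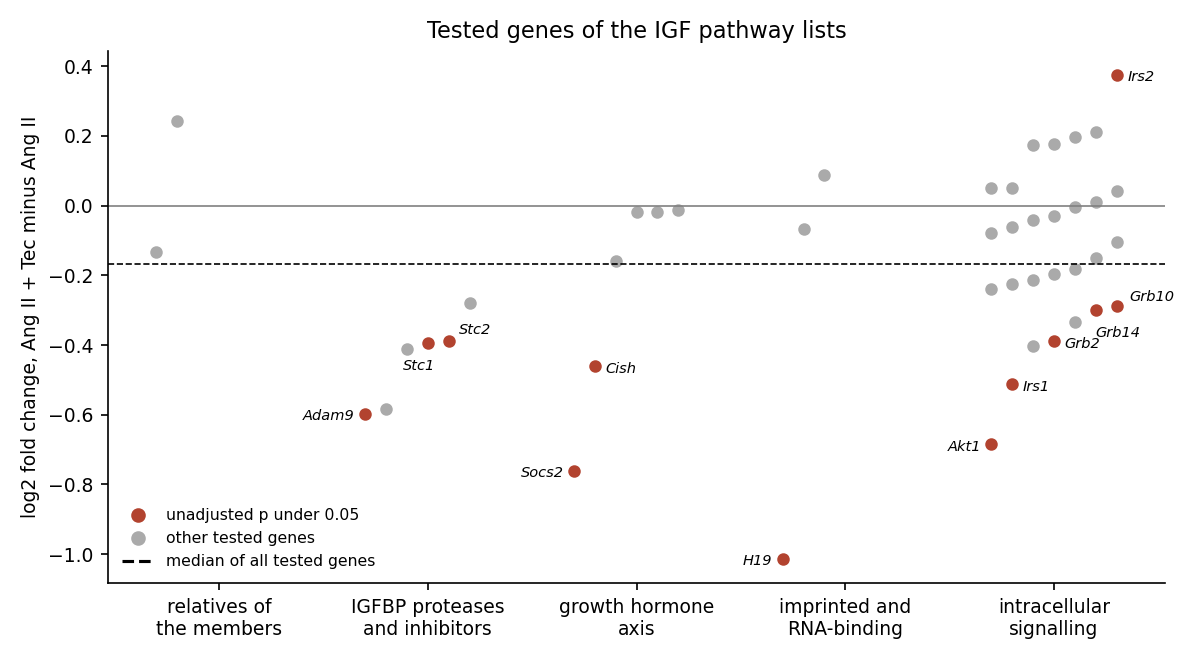
Log2 fold change of Ang II + Tec against Ang II for 45 of the 46 tested pathway genes, 1 point per gene in 5 lists; red points have an unadjusted p under 0.05 and are named, grey points are the other tested genes, and the dashed line is the median of all tested genes at -0.17. Irs2 is the only red point above 0, and H19 and Socs2 lie lowest.

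Of the close relatives of the members, Igfbp1 and Igfals were low in these hearts, while Insr, given above, was 4.36 to 7.19 FPKM. Igfbp1, the insulin-regulated binding protein of liver, was listed at 0 in 5 hearts and at 0.07 FPKM in Ang II + Tec replicate 1. Igfals, the acid-labile subunit made mainly in liver, was 0.77 to 1.14 FPKM in Ang II hearts and 0.74 to 0.89 FPKM in Ang II + Tec hearts (log2 fold change -0.13, limma, adjusted p = 0.492). The insulin genes Ins1 and Ins2 were listed but had no row under those names in the expression table.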

How the data were processed

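RNA was sequenced from 3 Ang II and 3 Ang II + Tec mouse hearts, labelled as separate hearts. The authors trimmed and filtered reads (Cutadapt, FastQC) and deposited FPKM for 30914 genes, of which 3154 were 0 in all 6 libraries. The submitters' processing notes name Bowtie 0.12.2, HISAT2 2.0, StringTie 1.3.0 and the build mm8, with no role for any, but 90.6% of the 30832 genes shared with GENCODE M21 have its GRCm38 coordinates, the 10 members included. The instrument is a NovaSeq in the labels and a HiSeq in the paper. Low FPKM values gave only a weak common step, which put the relative depth of the libraries at 0.937 to 1.12. Their absolute depth is unknown, so no counting interval is given and the spread between hearts is the error.

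FPKM are not counts, so log2(FPKM + 1) entered a linear model in limma 3.58.1 under R 4.3.3 (eBayes with a variance trend) over the 13089 genes with at least 0.5 FPKM in at least 3 libraries, with Benjamini-Hochberg adjustment over all of them. Differential expression required an adjusted p under 0.05 and a log2 fold change of 1 or more in either direction. Fold changes of low genes are understated on this scale. Ratios and shares were compared with exact two-sided permutation tests in Python 3.11.15 with SciPy 1.17.1. The fit was tested on simulated data. Tables were handled with pandas 2.3.3 and NumPy 2.4.6, and plots drawn with matplotlib 3.10.9.

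Named genes were the 10 members, the genes of each pathway list with an unadjusted p under 0.05 (up to the 5 lowest, or the lowest p where there was none), Insr, Igfbp1, Igfals, Pappa, Htra1, Ghr and H19 whatever their values, and the 3 most similar profiles for the 4 members with the widest range. Adamts1, Akt2, Airn, the genes overlapping members and the cell type markers lie outside this rule and were named after their values were seen. Some genes that the rule selects are not reported here, the profiles most like that of Igfbp2 among them. The members, the lists and the rule were chosen with earlier results of these data known. The alternatives were other pseudocounts, filters and scalings, robust variances, a replicate block and leaving out each library, with 2 subsets of libraries by Myl7 level added after seeing the data. The replicate number was not a block in the reported fit, and whether it marks a shared litter, batch or day is not given in the sources used here.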

Additional observations from a re-analysis of the deposited data

How the results depend on the processing

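Of the members, 0 were differentially expressed in every alternative with all 6 libraries and in 5 of the 6 fits that left out a heart; leaving out 1 heart gave 0 to 3, the 3 being without Ang II replicate 3. The 2 members at an unadjusted p under 0.05 became 1 with quantile normalization and 1 with robust variances. Over all 13089 tested genes, 2439 became 2118 and 2414. Leaving out 1 heart gave 0 to 5 members at that level. There were 5 without Ang II replicate 3, where 5715 of all tested genes reached it. Without Ang II replicate 2, Ang II + Tec replicate 1 or Ang II + Tec replicate 3 there were 0. The counts over all genes were then 1173, 1238 and 1191. For the pathway lists, leaving out 1 heart gave 0 to 2 called and 6 to 17 at an unadjusted p under 0.05. The 17 came without Ang II replicate 3, where 5715 of all 13089 tested genes reached that level. The 6 came without Ang II replicate 2 or Ang II + Tec replicate 3, where 1173 and 1191 did. Quantile normalization left 20 of 46 lower where 35 had been, beside 6031 of all tested genes where 10471 had been. Deviations of same-numbered hearts from their group means correlated at -0.039, 0.429 and 0.379 for replicates 1, 2 and 3. For Ang II replicates 2 and 3 the same-numbered Ang II + Tec heart correlated most. Ang II replicate 1 correlated more with Ang II + Tec replicate 2 (0.212). These correlations do not settle whether the replicate numbers pair the hearts. With the replicate number as a block, 4 members had an unadjusted p under 0.05, beside 3308 of all 13089 tested genes. In that fit 0 members were differentially expressed, and 22 genes in all were called where 21 had been.

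Signs that turned did so at small fold changes, and the cause was not tested. Median-of-ratios scaling gave log2 fold changes of 0.021 for Igf1r, 0.085 for Igf2r, 0.037 for Igfbp5 and 0.20 for Ghr, and quantile normalization gave 0.052, 0.084, 0.066 and 0.20 for these and 0.0061 for Igfals. Scaling to nuclear FPKM gave 0.011 for Ghr. Leaving out 1 heart gave Igfbp5 from -0.64 to 0.060, Igfbp6 from -0.82 to 0.029 and Ghr from -0.074 to 0.041. In the subset with Myl7 under 2 FPKM, the values were 0.045 for Igfbp3, 0.30 for Igfbp5, 0.31 for Igfbp6 and -0.014 for Insr, and in that with Myl7 over 300 FPKM they were 0.20 for Igfbp5 and 0.13 for Ghr. Leaving out 1 heart gave the log2 ratio of ligands to binding proteins from -0.060 (without Ang II replicate 1) to 0.46, and that of Igf2r to Igf1r from -0.042 (without Ang II + Tec replicate 3) to 0.11. Over the 40 results and their alternatives, 524 values stayed the same by the rule for their kind. Fold changes had to keep their sign and side of an adjusted p of 0.05, and ratios and shares only their sign. Counts could change to a degree, as when 9 members lower with Tec became 6. Of the rest, 25 reversed and 18 counts moved. The other 14 were fold changes with an adjusted p under 0.05 only in the alternative, each of them without Ang II replicate 3. Groups of 3 hearts limit every comparison: the exact test cannot pass 0.05, and 1 heart, Ang II replicate 3, decides whether Igf1, Igfbp4 and Igfbp7 are called.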
